A study of Mus musculus with 12 samples.

Results

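Collagen becomes a load-bearing fibre only after a series of enzymes has acted on it. Inside the cell, prolyl hydroxylases convert prolines so that the collagen helix is stable, and lysyl hydroxylases convert lysines that later carry cross-links. Outside the cell, lysyl oxidases oxidise lysines and hydroxylysines of collagen and elastin, which then join neighbouring molecules, while the transglutaminase Tgm2 links glutamine to lysine side chains. In tissues fibroblasts are the main producers of fibrillar collagen and of lysyl oxidases, whereas Tgm2 is a known transcript of macrophages. The 10 genes described here are the lysyl oxidases Lox, Loxl1, Loxl2 and Loxl3, the catalytic prolyl hydroxylase subunits P4ha1 and P4ha2, the lysyl hydroxylases Plod1, Plod2 and Plod3, and Tgm2. They were taken by gene name from the non-control probes of the array, which gave 17 of 39429 probes and 10 of 31131 named genes and features.

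Transcript levels came from 12 one-colour Agilent mouse arrays with Cy5-labelled, amplified cDNA of macrophages sorted from pancreatic tumours, 6 labelled YFP+ and 6 labelled YFP-. All samples were from female C57/B6 mice of 8 to 10 weeks that had been implanted with tumours, and their genotype is given as not provided. The design text of the series names FLT3-CRE/LSL-YFP mice beside wild-type and KPC mice but the labels do not tie a genotype to an array. Flt3 is known from blood cell progenitors, and such a Cre would mark their descendants with YFP. Tumour numbers 1 to 6 in the sample titles (renumbered here) occur once in each group. The labels do not say which samples share an animal or were pooled, and nothing states separate animals, so each p-value reflects the spread among these samples and that spread may be technical.

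The arrays lay on 3 slides with 2 arrays of each group per slide. Slide 1 held YFP+ arrays of tumours 2 and 6 and YFP- arrays of tumours 3 and 6. Slide 2 held YFP+ arrays of tumours 1 and 5 and YFP- arrays of tumours 2 and 5. Slide 3 held YFP+ arrays of tumours 3 and 4 and YFP- arrays of tumours 1 and 4. A difference within a slide therefore also compares different tumour numbers. The 75th percentile of the processed signal, to which each array was scaled, ran from 3264 to 3931 units on YFP+ arrays and from 2121 to 3332 on YFP- arrays, so YFP+ arrays were mostly brighter. All 10 macrophage markers listed were above background on all 12 arrays, and none of them was called, beside 1.75% of all features called in either direction. Levels below are log2 signals minus the array's 75th percentile, so a level of 0 is as bright as that percentile, and a difference is YFP+ minus YFP- on the log2 scale with limma's standard error (SE) for 6 arrays per group. A gene was tested by its brightest probe if that probe was above background on at least 6 arrays, and called at a Benjamini-Hochberg adjusted p under 0.05 over all 20370 features. Probes differ in how brightly they report a transcript, so levels are compared between groups and not between genes. Of the 10 genes 9 were tested; Loxl3 was not.

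The probes are 60-base oligonucleotides, and several genes have more than 1 at separate positions. The first 30 bases are given for Loxl1, Loxl2, P4ha1, Plod1 and Tgm2, in build mm9 per the file headers, 5′ to 3′, because agreement between independent probes bears on each gene's value. The first listed of each gene is the brighter one that stood for the gene, and no part is capitalised.
Loxl1 probe at chr9:58145451-58145510 (- strand): aactacgtgcaggcatccacatacgtgcag
Loxl1 probe at chr9:58138570-58138629 (- strand): aacgtggtgagatgcaacatccactacaca
Loxl2 probe at chr14:70090017-70090076 (+ strand): tgacattgactgccagtggatagacatcac
Loxl2 probe at chr14:70092141-70092200 (+ strand): tgaagtgccagaatcagatttctctaacaa
Loxl2 probe at chr14:70095254-70095313 (+ strand): caccaaaggcttcgggactcctgtgtgtag
P4ha1 probe at chr10:58835625-58835684 (+ strand): gaagatcagcagtgttaacccagggtccta
P4ha1 probe at chr10:58835012-58835071 (+ strand): ggctcattttaattctccaagaaagtagat
Plod1 probe without a position in the array annotation: aggagatggaacactatggccagtggtctc
Plod1 probe at chr4:147302568-147302627 (- strand): caaatcaatatcagcctggaccatcgctgc
Tgm2 probe at chr2:157942431-157942490 (- strand): aaagcgtggaagcctgtgtgggggtcatca
Tgm2 probe at chr2:157942275-157942334 (- strand): ctgggaagaatcaaactgatgcatttaacg
The array annotation gives no exon or UTR for these positions.

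Among the lysyl oxidases Lox fell in YFP+ macrophage samples, Loxl1 and Loxl2 had negative differences that were not called, and none of the hydroxylases or Tgm2 was called. Lox was the only one of the 9 tested genes that was called, against 1.75% of all features called in either direction and 1.41% called lower in YFP+. Among the genes described here, the median difference was -1.55 over the 3 tested lysyl oxidases. It was 0.07 over the 2 prolyl hydroxylases and 0.17 over the 3 lysyl hydroxylases, beside -0.03 over all features. Lox, Loxl1 and Loxl2 were each lower in YFP+ in all 6 tumour numbers, which holds for 5.29% of all features.

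**Figure D1:**
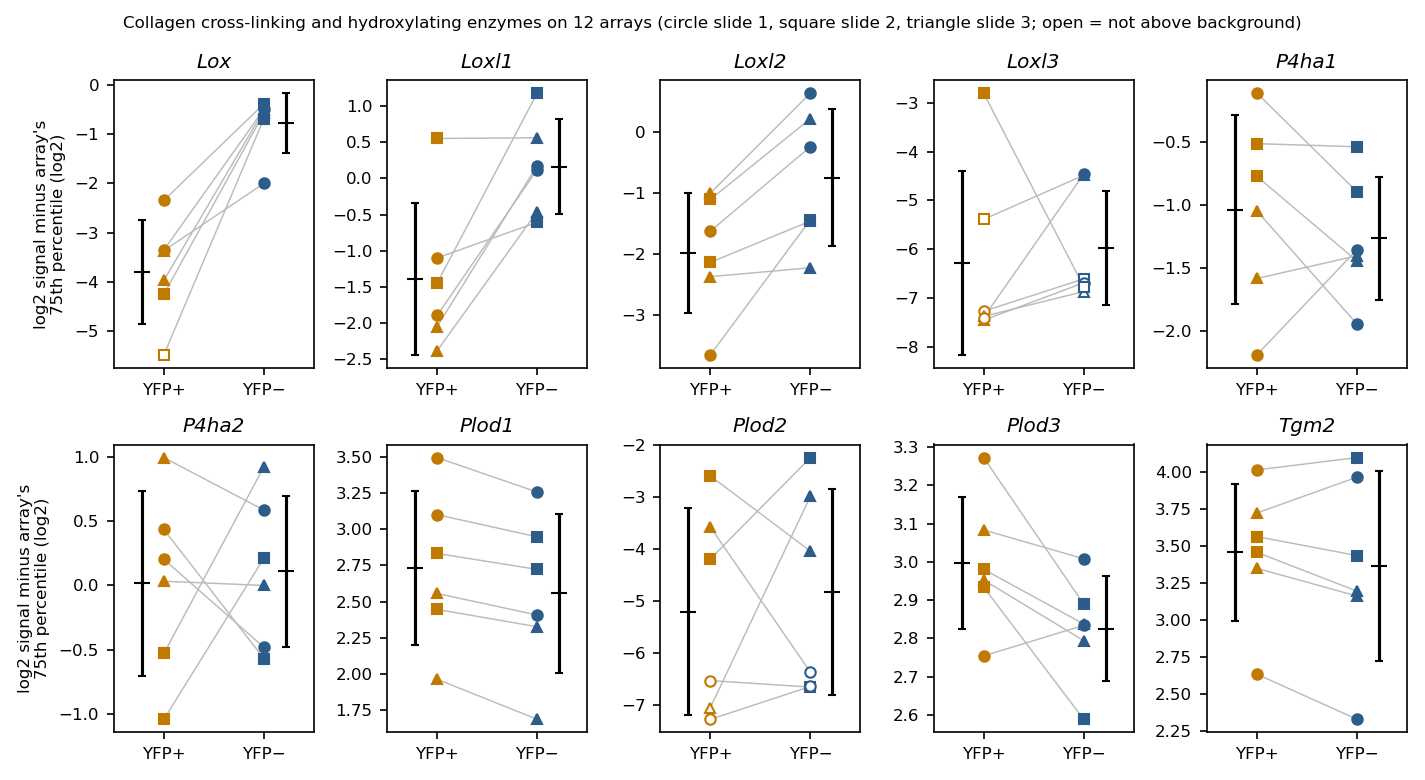
Level of each of the 10 genes (log2 signal minus the array's 75th percentile) on 6 YFP+ and 6 YFP- arrays. Grey lines join equal tumour numbers, marker shapes give the slide, open markers are spots not above background, and bars beside the points are mean and SD. Lox separates the groups, and the groups overlap in the other 9 panels.

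Lox, the founding lysyl oxidase, had levels of -5.49, -3.67 and -2.35 (lowest, median and highest) on YFP+ arrays, against -2.0, -0.54 and -0.38 on YFP- arrays. Every YFP+ array was below every YFP- array, a separation that 1.88% of all features show in either direction. Its probe lies on chromosome 18 from 52676912 to 52676971 in mm9. YFP+ arrays averaged -3.80 ± 1.06 and YFP- arrays -0.77 ± 0.61 (SD, n = 6 each), a difference of -3.03 (SE 0.47), or 8.17-fold lower in YFP+, with a limma adjusted p of 0.0054. It was not above background on the YFP+ array of tumour 5, the lowest of all, and without that array the difference was -2.69 (adjusted p = 0.0061). The second Lox probe, on chromosome 18 from 52680465 to 52680524, gave -3.34 (SE 0.74, adjusted p = 0.048 over all probes). On the YFP+ array of tumour 3 this probe was at -7.21 and not above background. The size of its difference therefore rests partly on a spot not told apart from background.

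The size of the Lox difference varied between slides, at -1.61, -4.35 and -3.14 within slides 1, 2 and 3. Slide 1 held the YFP- array of tumour 3, whose level of -2.0 stood apart from the other YFP- arrays at -0.68 and above. Without slide 3 the difference was -2.98 and was not called (adjusted p = 0.12, 8 arrays). With array brightness as a covariate it was -4.23 (SE 0.77, adjusted p = 0.10), where the brightness of the groups overlapped little, and with normexp background correction it was -2.11 (adjusted p = 0.0049).

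Loxl1, a lysyl oxidase-like enzyme needed for elastic fibre upkeep, had levels of -2.38, -1.67 and 0.55 on YFP+ arrays, against -0.61, 0.15 and 1.18 on YFP- arrays. On this brightest probe the groups overlapped through a single YFP+ array, that of tumour 1, where the level matched its YFP- counterpart (0.55 and 0.56). YFP+ arrays averaged -1.39 ± 1.05 and YFP- arrays 0.16 ± 0.66 (SD, n = 6 each), a difference of -1.55 (SE 0.47), or 2.93-fold lower, and was not called (limma adjusted p = 0.17). Without that YFP+ array of tumour 1 the difference was -1.94 and was called (adjusted p = 0.019). Of 12 fits that each left out 1 array, this was the 1 in which Loxl1 was called, and the highest adjusted p was 0.32. The other Loxl1 probe gave -1.96 (SE 0.61, adjusted p = 0.18 over all probes). On it the groups overlapped more widely, at -3.11 to -0.66 in YFP+ and -2.24 to 1.08 in YFP-. The within-slide differences of the brightest probe were -1.65, -0.73 and -2.27.

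Loxl2, a lysyl oxidase-like enzyme known for cross-linking basement membrane collagen, had levels of -3.64, -1.88 and -1.0 on YFP+ arrays, against -2.22, -0.84 and 0.63 on YFP- arrays. The 2 ranges overlapped. The difference was -1.23 (SE 0.56), or 2.34-fold lower in YFP+, and was not called (limma adjusted p = 0.44). The other 2 Loxl2 probes gave -1.29 (SE 0.40) and -2.77 (SE 0.91), with adjusted p of 0.18 and 0.22 over all probes, and each of the 3 was lower in YFP+ in all 6 tumour numbers. Within slides the difference was -2.83, -0.17 and -0.68 and was largest in size on slide 1. The signs of Lox, Loxl1 and Loxl2 were negative under all 5 scalings tried.

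Loxl3, the remaining lysyl oxidase of the set described here, was above background on 1 YFP+ array and 2 YFP- arrays and was not tested. Its levels were -7.45, -7.32 and -2.80 on YFP+ arrays, against -6.86, -6.64 and -4.46 on YFP- arrays. Most of these values are of spots not told apart from background and have no order.

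**Figure D2:**
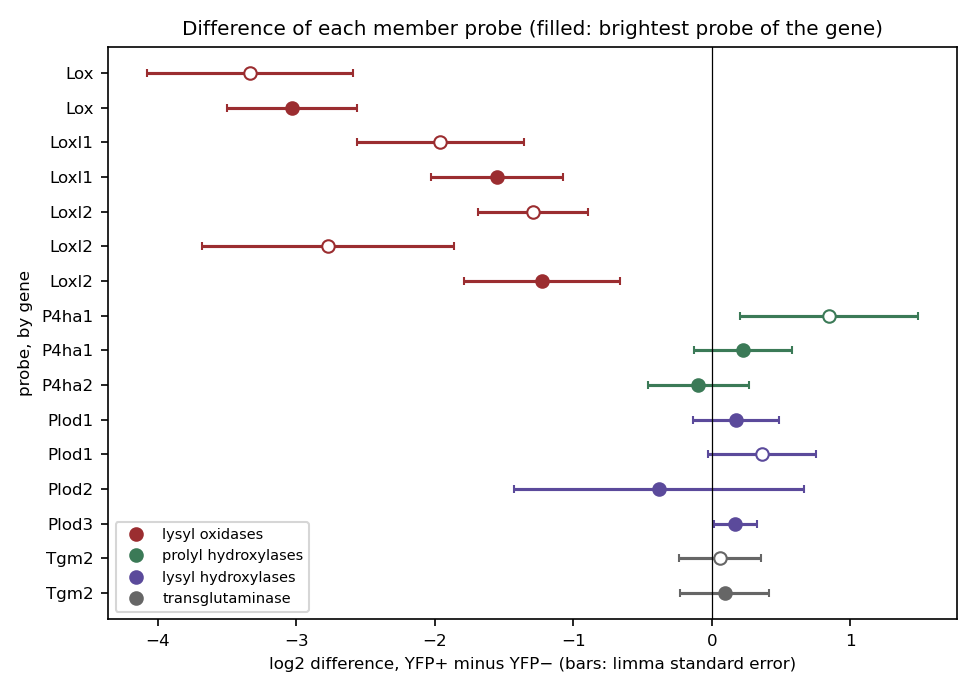
Log2 difference, YFP+ minus YFP-, of each of the 16 probes that passed the filter, with limma's standard error as bars and the brightest probe of each gene filled. All 7 probes of Lox, Loxl1 and Loxl2 lie below -1, and the 9 others shown lie between -0.38 and 0.85. Loxl4, a lysyl oxidase from a further gene list, is not shown and was at -0.42 (SE 0.48, not called).

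The prolyl hydroxylase subunits, which bind P4hb to form the active enzyme, showed no called difference. P4ha1 had levels of -2.19, -0.91 and -0.11 on YFP+ arrays, against -1.94, -1.38 and -0.54 on YFP- arrays, so the groups overlapped almost fully. Its difference was 0.23 (95% interval -0.54 to 1.0, limma adjusted p = 0.89). The dimmer P4ha1 probe, above background on 5 YFP+ and 3 YFP- arrays, gave 0.85 (SE 0.64, adjusted p = 0.71 over all probes). P4ha2 had levels of -1.04, 0.12 and 0.99 on YFP+ arrays, against -0.57, 0.11 and 0.92 on YFP- arrays. Its difference was -0.10 (95% interval -0.89 to 0.70, adjusted p = 0.96), and 0.11 when arrays were centred on their median, a scaling that moves the median of all features by 0.21. These intervals do not show that the groups are alike.

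Among the lysyl hydroxylases, Plod3, which also has glycosyltransferase activity, was the most even across arrays. Its levels were 2.75, 2.97 and 3.27 on YFP+ arrays, against 2.59, 2.84 and 3.01 on YFP- arrays. The difference was 0.17 (95% interval -0.16 to 0.51, limma adjusted p = 0.77). Plod2, the hydroxylase known for modifying the lysines of collagen telopeptides, was above background on 3 arrays of each group. Its levels ran from -7.28 to -2.59 in YFP+ and from -6.66 to -2.24 in YFP-, and the difference of -0.38 (SE 1.05, adjusted p = 0.94) was 0.03 with quantile normalization. At this signal a difference in Plod2 was not detectable.

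Plod1, the hydroxylase of lysines within the collagen helix, varied with tumour number more than with YFP on its brightest probe. By tumour number 1 to 6 its levels were 2.45, 3.10, 2.56, 1.96, 2.83 and 3.49 in YFP+, against 2.33, 2.95, 2.41, 1.69, 2.72 and 3.26 in YFP-. Tumour 6 was highest and tumour 4 lowest in both groups. Arrays of equal number differed by 0.11 to 0.28, with an SD of 0.07 over the 6 differences, against an SD between tumour numbers of 0.54 in YFP+ and 0.55 in YFP-. Plod1 was higher in YFP+ in all 6 numbers, as were 3.09% of all features, and its difference of 0.17 (SE 0.31) was not called (limma adjusted p = 0.91). The second Plod1 probe did not share the close arrangement: arrays of equal number differed by -0.33 to 1.16 on it, with the YFP- array of tumour 3 the lowest of all, and YFP+ was higher in 4 of 6. Its difference was 0.36 (SE 0.39).

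Tgm2, the tissue transglutaminase, showed a like arrangement by tumour number. Its levels for tumours 1 to 6 were 3.46, 4.02, 3.72, 3.35, 3.56 and 2.63 in YFP+, against 3.19, 4.10, 3.97, 3.16, 3.44 and 2.33 in YFP-. Tumour 2 was highest and tumour 6 lowest in both groups. The difference was 0.09 (95% interval -0.60 to 0.79, limma adjusted p = 0.96), and the second probe gave 0.06 (SE 0.30). Arrays of equal number differed by -0.24 to 0.31 on the first probe and by -0.12 to 0.21 on the second. Lox had no such arrangement: its differences at equal tumour number ran from -4.81 to -1.37.

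**Figure D3:**
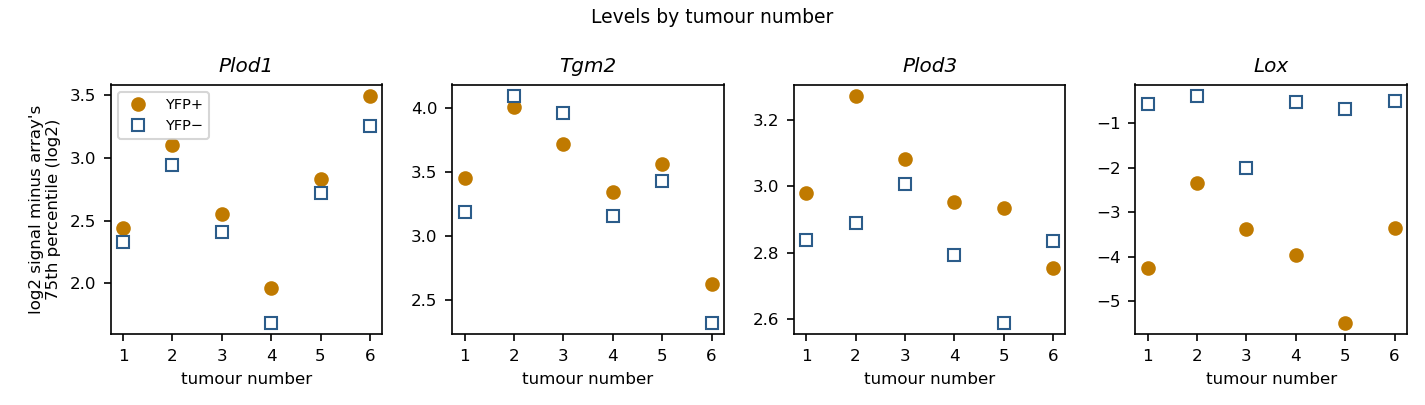
Levels (log2 signal minus the array's 75th percentile) of Plod1, Tgm2, Plod3 and Lox by tumour number, with YFP+ as filled circles and YFP- as open squares. On the brightest probes shown, Plod1 values of equal tumour number differ by 0.11 to 0.28 and Tgm2 values by -0.24 to 0.31, whereas the Lox values of the groups lie at least 1.37 apart.

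P4ha1 and P4ha2 are known targets of hypoxia-inducible factors. Promoter windows of the members were therefore searched for ACGTG, a core sequence of the hypoxia response element. The search covered both strands of the 250 bases before the start. Other forms of the core were not searched, and the core below means ACGTG alone. RefSeq windows (GRCm38.p6) were found for 4 of the 10 genes, and 3 of these held the core, as do 16.6% of all windows. Lox, the called member, and Loxl1, Loxl2, Loxl3, Plod2 and Tgm2 had no window and were not searched, so the core cannot be compared between called and uncalled members. The stretch around each match is printed with the core in capitals (CACGT where it lies on the opposite strand).
P4ha1, chr10:59323230-59323295 (+ strand): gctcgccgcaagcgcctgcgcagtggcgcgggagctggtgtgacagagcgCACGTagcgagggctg
P4ha2, chr11:54100796-54100900 (+ strand): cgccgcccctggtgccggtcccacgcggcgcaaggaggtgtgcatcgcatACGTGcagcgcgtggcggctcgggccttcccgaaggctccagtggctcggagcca
Plod3, chr5:136986915-136987018 (+ strand): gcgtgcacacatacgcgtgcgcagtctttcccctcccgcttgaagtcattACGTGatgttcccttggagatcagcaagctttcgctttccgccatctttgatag
A match is a run of letters and no measured site. The first base of the core lay at position -16 in P4ha1, -78 in P4ha2 and -54 in Plod3, counted from the start of the gene, and no core was found in the Plod1 window. Of 15 hypoxia-responsive genes listed, all were tested and none was called by limma, beside 1.75% of all features called in either direction. Their median difference was -0.06, with a range of -0.81 (Adm) to 0.19 (Slc2a1). The glycolytic genes Pgk1 (-0.23, SE 0.18) and Ldha (-0.25, SE 0.21), the vasoactive peptide gene Adm (SE 0.51) and the glucose transporter gene Slc2a1 (SE 0.20) were the 4 with the smallest p.

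The other genes of collagen processing were mostly negative in difference, and 1 was called. Of 27 listed, 25 were tested, 20 had negative differences, beside 52.8% of all features, and the median was -0.42. Of the 25, 1 was called lower, beside 1.41% of all features, and none higher. The called gene was Pcolce, the enhancer of procollagen C-proteinase, at -4.40 (SE 0.80, limma adjusted p = 0.014). Its probe was above background on 4 of 6 YFP+ and on 6 of 6 YFP- arrays, so the size of the difference rests partly on spots not told apart from background and no fold is given. With brightness as a covariate 0 of the list were called. P3h4, a partner of collagen lysyl hydroxylation, was at -2.79 (SE 0.75, adjusted p = 0.099), the collagen chaperone gene Serpinh1 at -1.91 (SE 0.56, 0.14) and the prolyl 3-hydroxylase gene P3h2 at -2.02 (SE 0.69, 0.24), none of them called. P3h2 was above background on 4 of 6 YFP+ arrays. P4hb, the partner subunit of P4ha1 and P4ha2, was at -0.10 (SE 0.26), and the macrophage transglutaminase gene F13a1 at -0.50 (SE 0.27), both not called. Loxl4, a further lysyl oxidase kept in this list, was at -0.42 (SE 0.48) and was not called (limma adjusted p = 0.84). It was lower in YFP+ in 4 tumour numbers and higher in 2, and above background on 3 arrays of each group.

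The substrates of the lysyl oxidases included 4 genes that fell in YFP+. Of 11 fibrillar collagen, elastin and fibronectin genes listed, 8 were tested and 4 were called lower, beside 1.41% of all features, with a median of -1.70. These were Col5a1 (-2.42, SE 0.35), Col1a2 (-1.84, SE 0.37), Col3a1 (-1.72, SE 0.31) and Col1a1 (-1.69, SE 0.33), with limma adjusted p from 0.0040 to 0.025. Without the YFP- array of tumour 2, or without that of tumour 5, 2 of the list were called, as without slide 3, and with array brightness as a covariate 0 were. The fibronectin gene Fn1, which macrophages also transcribe, was at -0.28 (SE 0.21, not called).

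**Figure D4:**
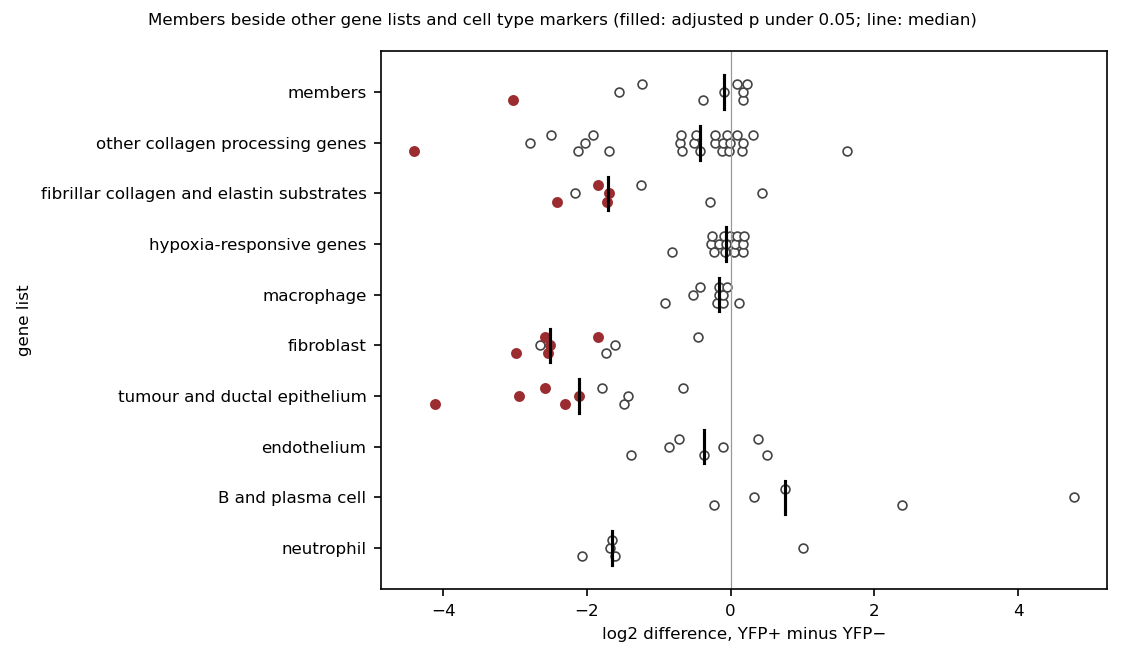
Log2 differences, YFP+ minus YFP-, of the 9 tested members, 3 further gene lists and 6 cell type marker lists, with called genes filled and a line at each median. The medians are -0.10 for the members, -1.70 for the substrates, -2.52 for fibroblast markers and -0.16 for macrophage markers.

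Among both the fibroblast and the epithelial markers 5 genes fell in YFP+, beside 1.41% of all features called lower. Of 10 fibroblast markers 9 were tested, all 9 were negative and 5 fell, with a median of -2.52 and Mfap5 (-2.59, SE 0.29) and Postn (-2.53, SE 0.33) foremost by p. Their summed signal, in units of the array's 75th percentile, was 2.12 to 4.99 on YFP+ arrays, against 7.59 to 20.9 on YFP- arrays, and Dpt was above background on none. All 9 epithelial markers were negative and 5 were called (median -2.11, with Krt8 at -2.59, SE 0.33, and Muc1 at -2.31, SE 0.31), with sums of 4.93 to 11.3 on YFP+ arrays, against 15.4 to 41.8 on YFP- arrays. The part of these cells in the Lox, Pcolce and collagen values was not tested, and in such sorted bulk RNA fewer cells of a type cannot be told apart from less RNA per cell.

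The other marker lists showed no called gene, beside 1.75% of all features called in either direction. Macrophage markers had sums of 123 to 211 on YFP+ arrays, against 139 to 251 on YFP- arrays, and a median difference of -0.16 (Mrc1 -0.42, SE 0.19; Itgam -0.52, SE 0.37). Endothelial markers had a median of -0.37 over 7 tested of 8, with Esam at -1.38 (SE 0.78) and Cdh5 at -0.71 (SE 0.65). Of the 7, 5 were negative and 2 positive (Pecam1 at 0.51, SE 0.84, and Emcn at 0.39, SE 0.91). Esam was above background on 4 arrays of each group, and Cdh5 on 4 YFP+ and 3 YFP- arrays. The endothelial sums were 1.47 to 2.12 on YFP+ arrays, against 1.33 to 4.84 on YFP- arrays. Neutrophil markers had a median of -1.65 over 5 tested of 7 (Ltf -1.65, SE 0.41; S100a9 -1.67, SE 0.42), 4 negative and 1 positive (Cxcr2 at 1.02, SE 0.30), with sums of 0.98 to 2.33 on YFP+ arrays, against 2.03 to 4.70 on YFP- arrays. B and plasma cell markers had a median of 0.76 over 5 tested of 7, with Jchain at 4.78 (SE 1.47) and Cd79b at 0.76 (SE 0.24). Jchain was above background on 3 of 6 YFP- arrays, so the size of its difference rests partly on spots not told apart from background. The sums of this list were 2.61 to 18.3 on YFP+ arrays, against 1.13 to 5.37 on YFP- arrays.

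**Figure D5:**
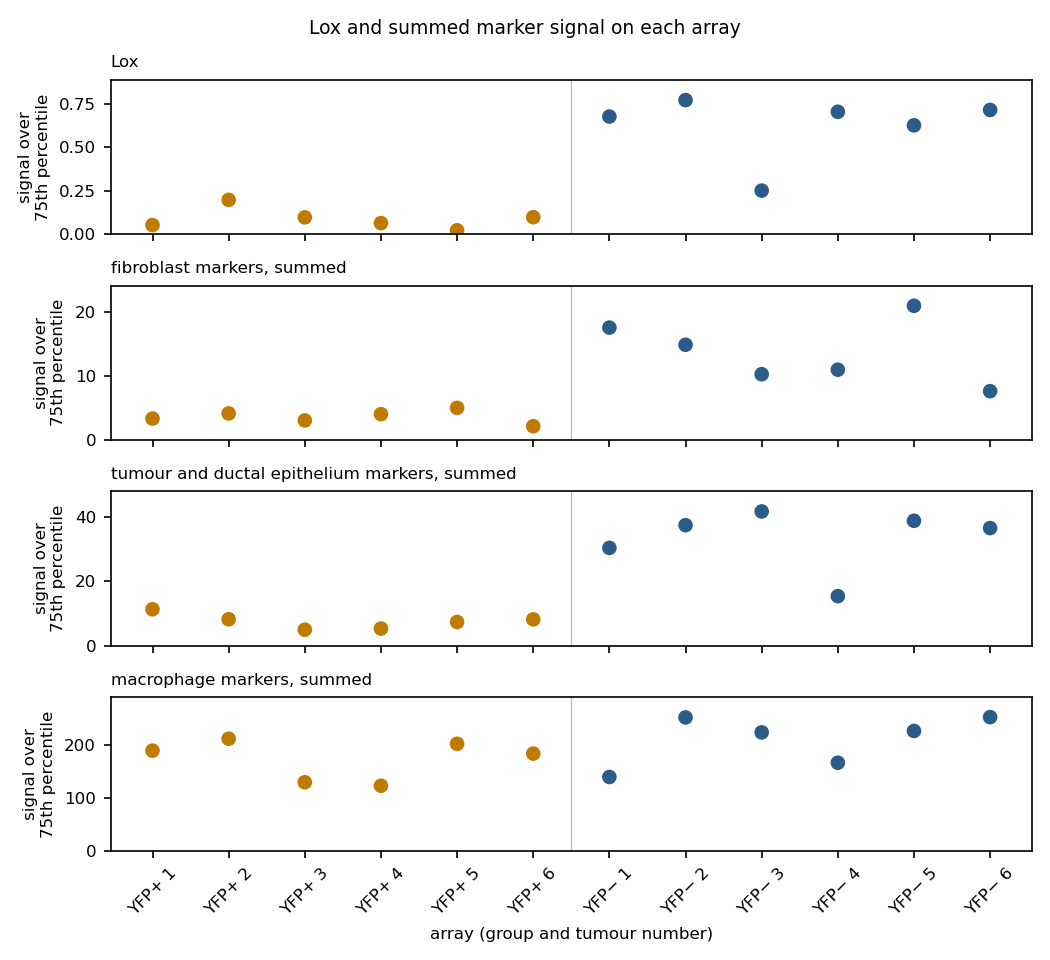
Signal on each array divided by the array's 75th percentile (linear axes from 0) for Lox and for the summed fibroblast, epithelial and macrophage markers, YFP+ arrays left of YFP- arrays. Lox and the fibroblast and epithelial sums separate the groups, and the macrophage sums overlap.

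Likeness of centred levels was measured as their root mean square difference on the log2 scale over the 12 arrays, among 15381 other genes with a current symbol. Levels were not scaled for their spread. Centring was on the mean of all 12 arrays and kept the group difference, so genes near Lox have a like YFP difference by construction. Nearest to Lox were Porcn, a processor of Wnt ligands (0.67), Myo1d, an unconventional myosin (0.72), and Rdh10, a retinol dehydrogenase (0.75). The median over all genes was 1.81. The YFP+ minus YFP- differences of Porcn, Myo1d and Rdh10 were -2.27 (SE 0.60), -2.56 (SE 0.39) and -3.14 (SE 0.30). Nearest to P4ha1 were Dock4 (0.34), Srebf2 (0.35) and Tmx2 (0.36), against a median of 0.83. Nearest to Plod3 were Dad1, a subunit of the oligosaccharyltransferase (0.08), Copa, a coat protein of transport vesicles (0.10), and Acp5 (0.11), against a median of 0.63. Members and neighbours here share arrays and scaling, and the neighbours are the nearest among many. A gene that varies little, such as Plod3 (SD 0.17 in YFP+ and 0.14 in YFP-), is near other genes that vary little, whatever their pattern.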

How the data were processed

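Per the file headers, the deposited intensity values are red (Cy5) processed signals of Agilent Feature Extraction 11.5.1.1, background-subtracted and detrended within the array, without scaling between arrays; build mm9. Each spot also carries deposited flags of 0 or 1. The authors also deposited a table of log2 values, per its values quantile-normalized (median of every column 8.83), whose ranks match the scanner signals; it was an alternative, and 0 of its columns were unused. How the sort was gated is not given in the sources used here.

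Control spots (1377 per array) and outlier spots were left out, repeated spots were averaged, and 35 of 39429 probes lacking a value were dropped. No spot was saturated. Signals were taken as log2 minus the array's 75th percentile. Accessions of 28330 probes matched RefSeq, which changed 1403 names. The fit was limma's lmFit and eBayes (limma 3.58.1, R 4.3.3) with group as the sole term over 12 arrays and Benjamini-Hochberg adjustment over 20370 features. The fit was tested on simulated data. The number of arrays limits the precision. Other tools were statmod 1.5.0, Python 3.11.15, numpy 2.4.6, pandas 2.3.3 and matplotlib 3.10.9.

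Members and lists were chosen with earlier results of these data known. Named genes were all members, the 4 of each other list with the smallest p and every called gene. They also included 2 of each marker list and the 3 nearest to the smallest-p member of each enzyme class. P4hb, F13a1, Loxl4, Fn1, Cxcr2, Pecam1 and Emcn were named after their values were seen. Same-numbered arrays correlated by more than 0.1 in their deviations for 4 of 6 tumour numbers (-0.30 to 0.37). Both arrays of tumours 4, 5 and 6 lay on the same slide (0.37, 0.19 and 0.28). Those of tumours 1, 2 and 3 lay on different slides (-0.30, 0.11 and -0.13). The check could therefore not tell a shared tumour from a shared slide, and the main fit did not pair samples. Alternatives were a block for tumour number, for slide or for both, normexp with an offset of 50, quantile and median scaling, the deposited table, other probe filters and probe choices, other variances, brightness as a covariate, and leaving out arrays or slides. Normal pancreas and other mice of the design text were not analysed here.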

Additional observations from a re-analysis of the deposited data

Results flagged for a closer look

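Among the 18 groups of 6 values checked, 1 had a sample far from the others, where chance alone marks about 1 in 20. The Lox level on the YFP- array of tumour 3 was -2.0, against -0.68 for the nearest of the other YFP- arrays, a gap that made up 0.815 of the group's range. Without that array the Lox difference was -3.28 (limma adjusted p = 0.0050).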

How the results depend on the processing

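With tumour number as a replicate block, which the pairing check could not decide on, 296 features were called and the Lox adjusted p was 0.029. The other collagen processing list had 2 calls in place of 1, and the counts of calls among members and the other 2 lists stayed at 1, 4 and 0. The SE of Plod1 was then 0.16 and that of Loxl2 0.29, and neither was called (limma adjusted p = 0.75 and 0.12). A slide block gave 556 calls over all features in place of 356, slide with a random replicate block 558, and normexp 547, each with 2 in the processing list. Requiring signal on all 12 arrays gave 233 calls, 0 among members (Lox was not tested) and 0 in the processing list. Brightness as a covariate gave 12 calls, 0 among members and in both the processing and substrate lists, with Lox at -4.23. Tgm2 was then at 0.94 (SE 0.52) and P4ha2 at -0.93 (SE 0.62), neither of them called. Without slide 3 there were 196 calls, 0 among members and 2 among substrates, with Lox at -2.98, Plod2 at 0.33 and Tgm2 at -0.039. Slides 1, 2 and 3 alone gave 0 calls by limma (1847, 1798 and 1618 at an unadjusted p under 0.05), hence 0 for members and lists, with Lox at -1.61, -4.35 and -3.14. Signs also turned for P4ha2 (0.11 with median centring, 0.27 on slide 1, 0.052 on slide 3), Plod1 (-0.20 on slide 2), Plod2 (0.026 with quantile normalization and with the deposited table, 1.06 on slide 2) and Tgm2 (-0.26 on slide 2). The slide values set partly different tumour numbers against each other, and at equal number Plod1 was higher in YFP+ in all 6 on its brightest probe. Leaving out 1 array at a time gave 266 to 383 calls over all features, 1 to 2 among members, 1 to 2 in the processing list (2 without the YFP+ array of tumour 4 or the YFP- array of tumour 6) and 2 to 4 among substrates (2 without the YFP- array of tumour 2 or of tumour 5). Lox then ran from -3.32 to -2.69 and was called in 12 of 12, and Loxl1 from -1.94 (called, without the YFP+ array of tumour 1) to -1.35. P4ha2 ran from -0.29 to 0.12, Plod2 from -0.90 to 0.14 and Tgm2 from -0.11 to 0.26. The causes were not tested. Plod2 and Loxl3 were limited by signal near background.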
